A study of Mus musculus with 4 samples.

Results

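Complement is a cascade of blood and tissue proteins that tags and breaks down targets. C1q, a hexamer of 3 kinds of chain, starts the classical pathway, and the alternative pathway runs on C3 with factor B and is held together by properdin. The fragments C3a and C5a act on receptors of myeloid cells. Tumour macrophages are a known source of C1q and C3. Described here are 9 genes of this system, taken by their symbols from the 27998 features of the count matrices: the C1q chains C1qa, C1qb and C1qc, the central component C3, the serine proteases C2 and Cfb (factor B), the stabiliser Cfp (properdin), and the receptors C3ar1 (for C3a) and C5ar1 (for C5a). All 9 were found.

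The cells came from tumours of the mouse mammary tumour line MT4788 in wild-type FVB mice on day 4, enriched for CD45, the pan-leukocyte surface protein, and sequenced with the 10x Genomics 3' method, which counts molecules by unique molecular identifiers (UMIs). In the library called combination the mice had received poly I:C together with phenformin. The library called poly I:C had PBS in place of phenformin, the one called phenformin had saline in place of poly I:C, and control had saline and PBS. Poly I:C mimics viral RNA and engages innate RNA sensors, and phenformin is a biguanide drug that inhibits the respiratory chain. The labels give 1 library per treatment and do not say how many animals stand behind it, so no treatment has a replicate and no test between treatments could be made: every interval is a 95% interval of counting error only.

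After filtering, combination, poly I:C, phenformin and control held 8268, 6619, 5453 and 6095 cells with a median of 5902, 8430, 8312 and 6543 UMIs. Any pair of libraries shared 8 to 21 cell barcodes, at most 0.317% of the smaller one. Cells were sorted into gates by raw UMIs of a few genes: macrophage (Csf1r, Cd68 and Adgre1, at least 3 together), monocyte (at least 2 of Ly6c2 and under 5 of C1q), neutrophil (at least 5 of S100a8 with S100a9 and at least 1 of Csf3r with Cxcr2), dendritic (Flt3) and tumour (at least 5 of Krt5 with Krt14 and none of Ptprc). The label gives a fraction free of EpCam and CD31, yet the tumour gate held 420, 592, 209 and 376 cells in which the level of Epcam was 1655, 1635, 1361 and 1235 CPM (UMIs scaled to a gate total of 1000000).

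The gates were not pure. In the monocyte gate 46.6%, 43.3%, 25.8% and 28.3% of the cells of combination, poly I:C, phenformin and control had 2 or more Cd3 UMIs, a T cell mark. Cells that were also in the macrophage gate supplied 38.8%, 48.3%, 55.6% and 45.5% of its UMIs. In the neutrophil gate 50.7%, 65%, 39.2% and 39.6% of the UMIs came from cells that were also in the macrophage gate. In the dendritic gate 58.7%, 54.2%, 46.8% and 48.7% of the cells had 2 or more UMIs of Siglech, a plasmacytoid dendritic cell gene. Values in those gates are therefore also given for the reduced gates, which leave out monocyte-gate cells with any Cd3 or Siglech UMI, neutrophil-gate cells with any Cd3, Csf1r, Cd68 or Adgre1 UMI, and dendritic-gate cells with 2 or more of Csf1r, Cd68 and Adgre1. The reduced monocyte gate keeps cells that are also in the macrophage gate. A T cell gate (2503, 1686, 1218 and 1345 cells), in which myeloid genes should be silent, gives the level of free RNA for them. For C3 and C2, whose levels were highest in fibroblasts, it is a weaker guide. Its 5 fibroblast markers summed to 194, 441, 208 and 85.8 CPM.

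C1qa, C1qb and C1qc lie next to each other on chromosome 4 of build GRCm38, all on the minus strand, at 136895917 to 136898803, 136880129 to 136886187 and 136889804 to 136893065. Promoters of 6 of the 9 genes were in the RefSeq table (build GRCm38.p6); those of C1qb, C1qc and C3 are shown because the C1q chains were higher together in the same libraries while C3 was not. The stretches are upstream of both the RefSeq start and the annotated gene, 5′ to 3′ on the minus strand, with the PU.1 core GAGGAA, or its reverse complement TTCCTC, in capitals; PU.1 is the myeloid lineage factor.
C1qb, chr4:136886201-136886450: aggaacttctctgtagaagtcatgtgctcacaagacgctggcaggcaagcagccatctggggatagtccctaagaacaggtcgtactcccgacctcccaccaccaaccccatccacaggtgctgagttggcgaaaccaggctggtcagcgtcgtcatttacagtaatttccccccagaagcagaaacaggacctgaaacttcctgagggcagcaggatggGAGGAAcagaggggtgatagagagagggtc
C1qc, chr4:136893066-136893164: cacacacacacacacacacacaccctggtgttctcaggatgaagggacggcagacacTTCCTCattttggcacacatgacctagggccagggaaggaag
C3, chr17:57228137-57228386: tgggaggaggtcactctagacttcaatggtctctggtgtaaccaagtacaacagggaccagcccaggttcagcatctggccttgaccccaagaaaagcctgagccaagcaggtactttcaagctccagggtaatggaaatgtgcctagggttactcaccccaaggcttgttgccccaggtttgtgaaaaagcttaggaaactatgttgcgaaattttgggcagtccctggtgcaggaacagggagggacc

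The core stood 30 to 25 bases before the RefSeq start of C1qb and 193 to 188 bases before that of C1qc, and was found in neither strand of the 250 bases upstream of C3. Nor was it in the windows of Cfp, C3ar1 and C5ar1, so its absence is not particular to C3. It is a common word, present in 23.3% of 32851 promoters of the same length. The interferon response motif (TTTC, any 2 bases, TTTC), which 2.98% of promoters hold, and the STAT motif TTCNNNGAA, which 7.02% hold, were in none of the 6 windows on either strand. A TATA box, TATAAA, stood 235 to 230 bases before the start of C3ar1 and in no other of the 6, against 12.4% of all promoters. A match is a string of letters and not a shown binding site, and a missing one says only that the letters are absent from this window.

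The classical pathway starter was the group that differed most clearly between treatments. C1qa stood at 6134 CPM in combination macrophage-gate cells, 4689 in poly I:C, 2740 in phenformin and 2493 CPM in control. C1qb had 3172, 2525 and 1419 CPM in combination, poly I:C and phenformin, against 1219 CPM in control. C1qc had 2765, 2044 and 1367 CPM in those libraries, against 1314 CPM in control. Both libraries with poly I:C lay above both without it for every chain, and the combination was the highest.

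Over control, the combination was 2.46-fold higher for C1qa (2.44 to 2.48), 2.6-fold for C1qb (2.57 to 2.64) and 2.1-fold for C1qc (2.08 to 2.13). Poly I:C alone was 1.88-fold, 2.07-fold and 1.56-fold higher than control for the same chains; C1qc was under 1.5-fold with doubled gate thresholds (1.41) and with gates set on cells thinned to 2000 UMIs (1.3). Phenformin alone differed little from control, by 1.1-fold, 1.16-fold and 1.04-fold. Adding phenformin to poly I:C went with ratios of 1.31 (1.3 to 1.32), 1.26 (1.25 to 1.27) and 1.35 (1.34 to 1.37) for combination over poly I:C, which are outside counting error but under 1.5-fold. Combination over phenformin gave 2.24, 2.23 and 2.02.

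**Figure D1:**
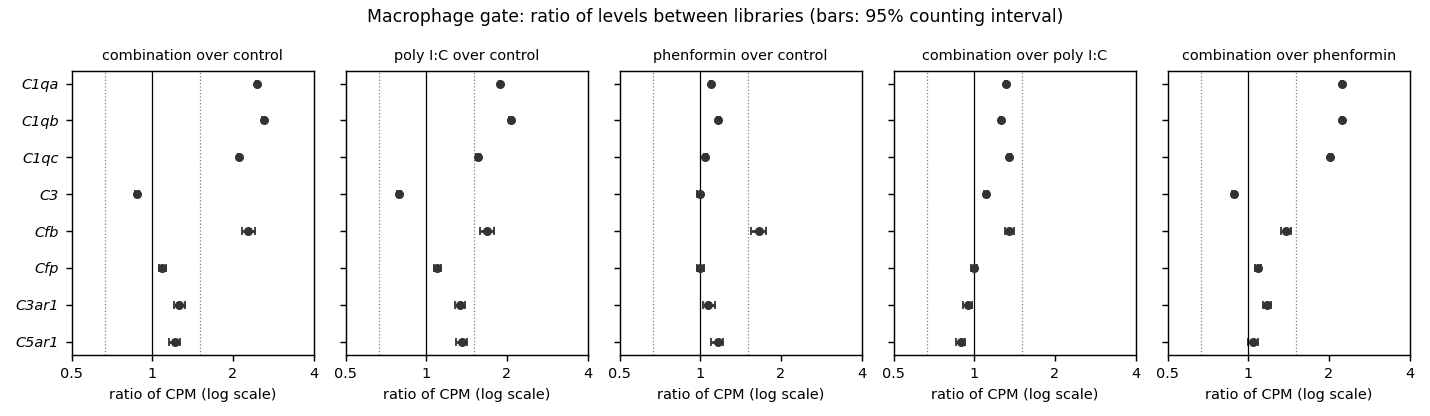
Ratio of CPM between 2 libraries in the macrophage gate (x axis, log scale) for 8 members in 5 comparisons; points are ratios, bars are 95% counting intervals, the solid line is 1 and dotted lines mark 1.5-fold in either direction. C1qa, C1qb and C1qc lie to the right of 1.5 in the 3 comparisons of a poly I:C library with one without poly I:C, and Cfb in the 3 comparisons with control.

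Genes were called higher or lower at 1.5-fold with at least 50 CPM and 30 UMIs in the higher library, and 8 of the 9 members passed that floor in the macrophage gate, C2 being the one below it. In combination over control 4 of the 8 were higher (C1qa, C1qb, C1qc and Cfb), where 4.3% of 3183 genes were. The same 4 were higher in poly I:C over control, where 3.31% of 3138 genes were. Cfb was the 1 member higher in phenformin over control, against 0.49% of 3063 genes. No member was higher in combination over poly I:C, where 1.06% of 3029 genes were. Combination over phenformin had 3 higher members, the C1q chains, against 3.69% of 3117 genes.

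No member was lower at that fold in these 5 comparisons, where 5.03%, 4.3%, 0.261%, 1.52% and 4.49% of genes were. The median log2 ratio of the members was 0.70, 0.53, 0.12, 0.24 and 0.34 in the same order of comparisons, and that of all genes compared -0.03, -0.07, -0.02, 0.04 and -0.01. With TMM scaling the members called were the same in number, but the split of all genes shifted. Poly I:C over control had 104 genes higher and 135 lower by CPM, and 139 and 83 by TMM. Phenformin over control had 15 and 8 by CPM and 19 and 5 by TMM, and combination over poly I:C had 32 and 46 by CPM and 20 and 68 by TMM.

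C1q was not spread evenly over the gate. With every cell thinned to 1000 UMIs, a macrophage-gate cell tended to have either none or many of the 3 chains. Cells with 3 or more C1q UMIs, called C1q-high here, made up 72.1% of the combination (70.4 to 73.8%), 65.4% of poly I:C, 43.5% of phenformin and 45.4% of control. Cells with none, called C1q-zero, made up 21.4%, 27.5%, 46% and 43.8%. The 1 or 2 UMIs next to the cut were seen in 6.5%, 7.08%, 10.5% and 10.9% of cells, so the classes are ranges of a score and not cell types.

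Without the macrophage-gate cells that held a Cd3 or Siglech UMI, C1q-high cells made up 74.7%, 67.6%, 45.8% and 47.1%. Besides their share, the amount of C1q in these cells differed. The C1q-high cells had a median of 14, 12, 10 and 9 C1q UMIs per 1000 in combination, poly I:C, phenformin and control. Within them C1qa was 1.61-fold, C1qb 1.71-fold and C1qc 1.38-fold higher in the combination than in control. Poly I:C over control gave 1.34, 1.48 and 1.11 there, and phenformin over control 1.09, 1.16 and 1.03.

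**Figure D2:**
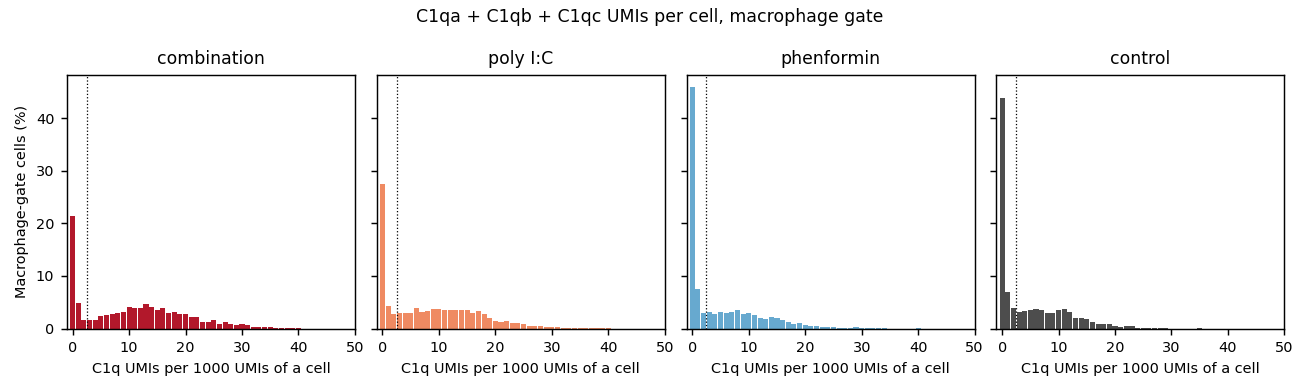
Share of macrophage-gate cells (y axis, percent) by the number of C1qa, C1qb and C1qc UMIs among 1000 UMIs drawn from the cell (x axis), 1 panel per library; the dotted line separates cells with 3 or more. The bar at 0 is 21.4% in combination, 27.5% in poly I:C, 46% in phenformin and 43.8% in control, and the hump to its right lies further out in both poly I:C libraries.

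The chains did not move by the same factor. C1qc supplied 22.9% and 22.1% of the C1q UMIs in combination and poly I:C, against 24.7% in phenformin and 26.1% in control (25.9 to 26.4%). C1qb supplied 26.3% and 27.3% in the poly I:C libraries, against 25.7% in phenformin and 24.3% in control. The share of C1qa stayed between 49.6% and 50.8%. The direction of each chain was nevertheless the same in every comparison of a poly I:C library with control.

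In every library the C1q-high cells were set apart, besides C1q itself, by higher Ccl8, Pla2g2d, Apoe, Vcam1 and C6. C1q-zero cells had higher Siglech, Klk1 and Ccr9, genes of plasmacytoid dendritic cells, and higher Ly6c2, Vcan and Plac8, genes of monocytes. The gate's own macrophage markers moved too. The summed level of 7 of them was 15643, 21045, 10749 and 8329 CPM in combination, poly I:C, phenformin and control, mostly Apoe at 8128, 11551, 4115 and 2236 CPM. The summed level of 6 monocyte markers was 1529, 1305, 1505 and 1659 CPM, with Ccr2 at 60, 40.9, 98.2 and 150 CPM. Their part in the C1q result was not tested.

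Outside the macrophage gate C1q was low once mixed cells were left out. The macrophage gate held 95.8%, 97.8%, 96.6% and 93.5% of all C1qa UMIs of combination, poly I:C, phenformin and control. In the order of C1qa levels the macrophage gate (2493 to 6134 CPM over the 4 libraries) was followed by the neutrophil (525 to 2555), B cell (766 to 3571) and dendritic gates (210 to 1047). Each of these ranges overlaps the one before it. In the reduced neutrophil gate C1qa had 134, 92.7, 146 and 81.9 CPM, in the reduced dendritic gate 53.7, 38.8, 32.5 and 19 CPM, and in B-gate cells without macrophage genes 106, 30.9, 36.7 and 26.3 CPM. The T cell gate had 80, 48.9, 33.3 and 31.5 CPM, so the reduced dendritic gate lay at or below this background in all 4 libraries.

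The background level of C1qa followed the same order of libraries as the macrophage level. Thinned to 1000 UMIs, 74.5%, 68.2%, 47.5% and 50.1% of macrophage-gate cells had a C1qa UMI in combination, poly I:C, phenformin and control, against 9.68%, 6.13%, 4.54% and 4.68% of T-gate cells. The median depth before thinning was 10361, 12136, 12108 and 9337 UMIs in the macrophage gate and 4598, 5475, 6658 and 6013 in the T cell gate. Unthinned, 84.6%, 81.9%, 65.4% and 66.8% of macrophage-gate cells and 32%, 28.3%, 24.7% and 20.7% of T-gate cells had one. The monocyte gate is capped on C1q by its own definition, and its 52, 41.2, 29.8 and 30.4 CPM of C1qa are a description of that cap.

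**Figure D3:**
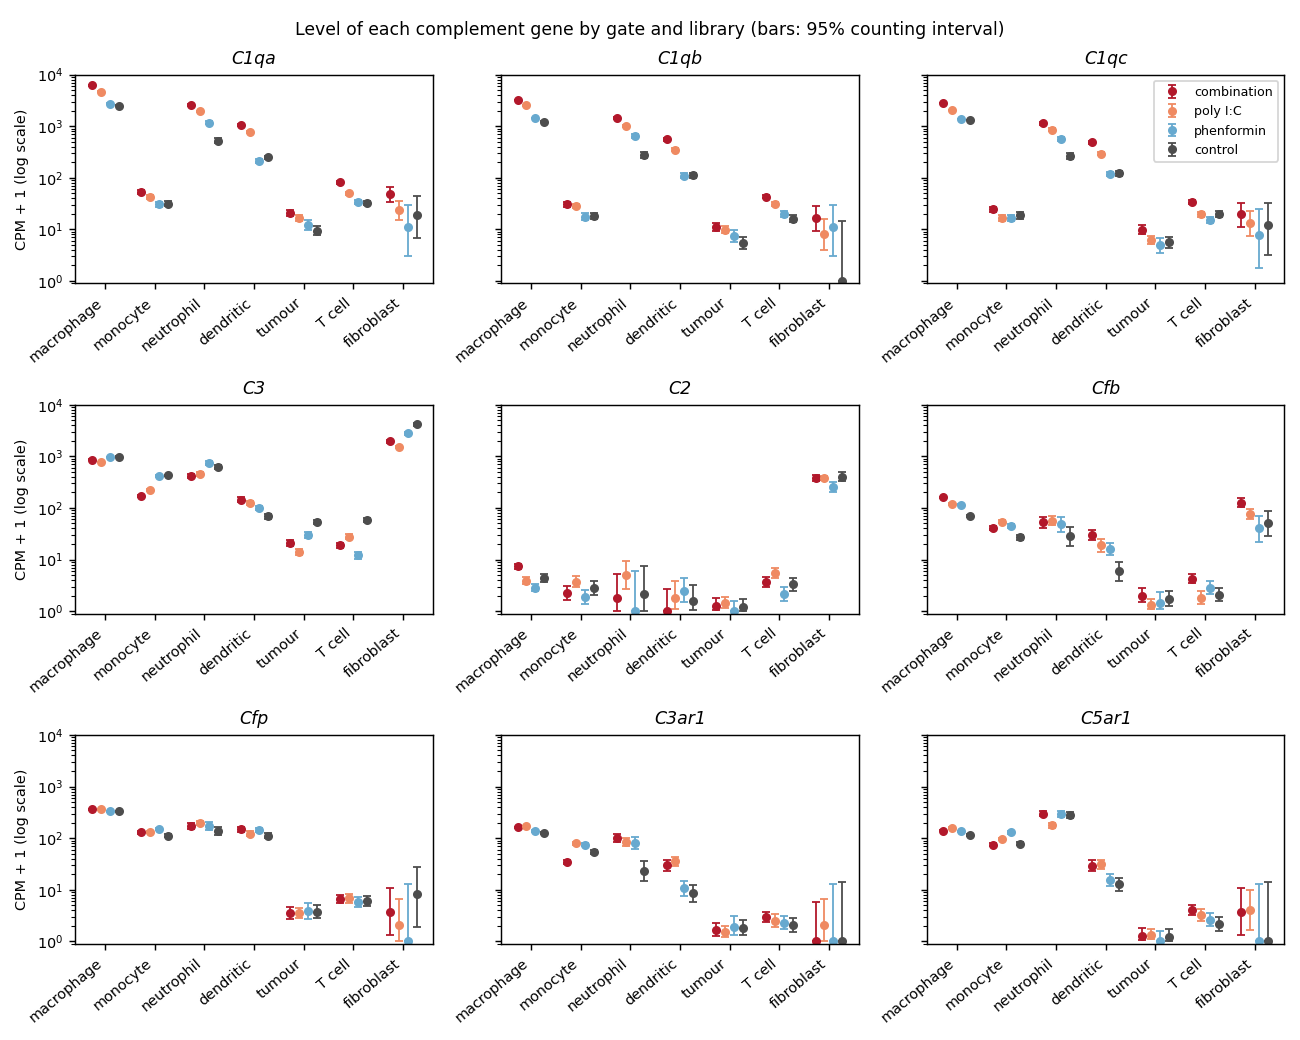
Level of each of the 9 genes (y axis, CPM + 1, log scale) in 7 gates (x axis), 1 colour per library; points are sums over the gate's cells and bars 95% counting intervals. C1qa, C1qb, C1qc, Cfb, Cfp and C3ar1 are highest in the macrophage gate by their median over the libraries, C5ar1 in the neutrophil gate, and C3 and C2 in the fibroblast gate.

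C3, whose cleavage all pathways share, behaved differently from C1q. In the macrophage gate it had 858 CPM in combination and 776 in poly I:C, against 974 in phenformin and 981 CPM in control. Ratios over control were 0.875 (0.86 to 0.891), 0.792 (0.778 to 0.806) and 0.993 (0.976 to 1.01), none of them at 1.5-fold. Thinned to 1000 UMIs, 45.1%, 42.3%, 47.3% and 49% of macrophage-gate cells had a C3 UMI, against 1.16%, 0.774%, 1.49% and 1.51% in the T cell gate.

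Within the gate C3 was higher in C1q-high cells, yet lower with poly I:C in both classes. C1q-high cells had 997, 930, 1240 and 1237 CPM of C3 in combination, poly I:C, phenformin and control, and C1q-zero cells 363, 399, 639 and 659 CPM. Combination over control was 0.806 in C1q-high and 0.552 in C1q-zero cells, and poly I:C over control 0.751 and 0.606. Phenformin over control was 1 and 0.97. The make-up of the C1q-zero class differed as well: in combination over control its Ly6c2 was 2.04, Siglech 1.64 and the macrophage gene Mrc1 0.407, and in poly I:C over control Ly6c2 was 1.48, Siglech 0.899 and Mrc1 0.506. The part of this in the C3 values was not tested. The higher share of C1q-high cells in the poly I:C libraries thus sat beside lower C3 in each class.

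**Figure D4:**
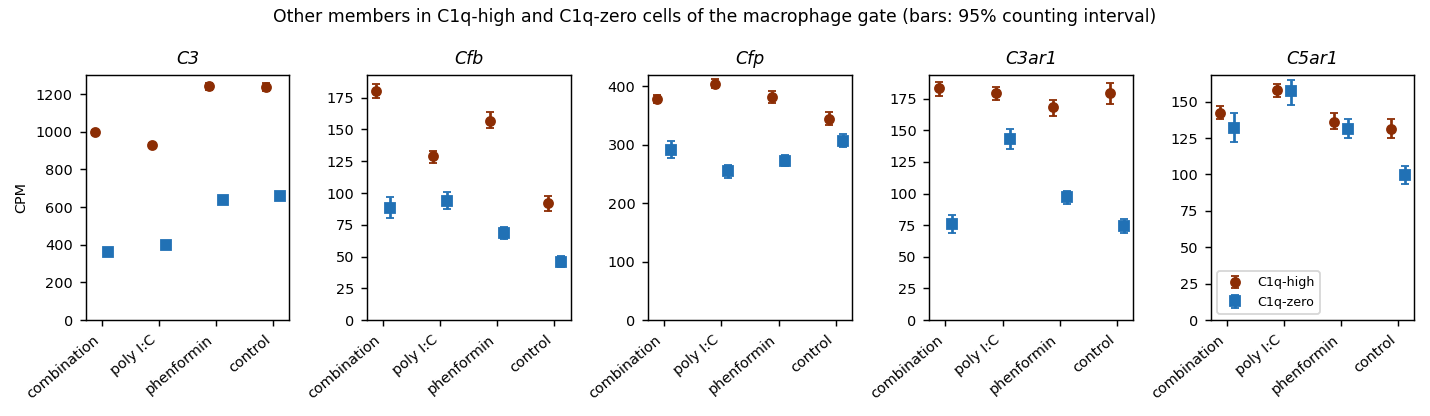
Level of C3, Cfb, Cfp, C3ar1 and C5ar1 (y axis, CPM) in C1q-high and C1q-zero cells of the macrophage gate, by library (x axis); bars are 95% counting intervals. C3 is lower in combination and poly I:C than in phenformin and control in both classes, and C3ar1 of C1q-zero cells is highest in poly I:C at 143 CPM.

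C3 also differed by treatment in the monocyte gate. It had 167 CPM in combination, 223 in poly I:C, 415 in phenformin and 430 CPM in control, and 376, 406, 711 and 813 CPM in the reduced gate. Combination over control was 0.387 (0.367 to 0.409) in the whole gate and 0.463 (0.436 to 0.491) in the reduced one. Poly I:C over control was 0.519 (0.495 to 0.545) and 0.5 (0.475 to 0.527), and phenformin over control 0.965 and 0.875. Among cells in the monocyte gate alone, combination over control was 0.167 and poly I:C over control 0.244. Both poly I:C libraries were below both others in either version of the gate. Most of this C3 came from cells also in the macrophage gate. Outside the macrophage gate, the monocyte gate held 297, 395 and 337 C3 UMIs in combination, poly I:C and phenformin, from 924, 812 and 510 cells. The reduced gate held 1616, 2422 and 4053 there, and 3573 in control. Whether both poly I:C libraries lay below both others outside the macrophage gate was not tested. The T cell markers of the whole gate (6 genes) summed to 1613, 1310, 758 and 859 CPM. The part of T cells and of macrophage-gate cells in the C3 ratios was not tested.

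Of the 9 members, 5 passed the floor in the monocyte gate for combination over control. C3 and C3ar1 were lower there, where 6.9% of genes were, and C1qa, capped by the gate, was higher, where 3.25% were. In poly I:C over control C3 was lower, where 8.22% of genes were, and Cfb and C3ar1 were higher, where 3% were. Cfb passed the floor only through its 53 CPM in poly I:C, and C1qa only through its 52 CPM in combination. C3ar1 in combination over control passed it only through control. These calls rest on values near the floor. In phenformin over control 1 of 4 members was higher, C5ar1, where 1.02% of genes were, and none lower, where 0.555% were. Combination over poly I:C had 1 of 6 lower, C3ar1, where 2.75% of genes were, and none higher, where 1.52% were, and combination over phenformin 3 of 5 lower, C3, C3ar1 and C5ar1, where 7.24% were, with C1qa again higher, where 4.68% were. The call of C3ar1 in combination over control (0.641) did not hold in the reduced gate (0.773) or with TMM scaling (0.675), nor that of C5ar1 in phenformin over control (1.66) in the reduced gate (1.43). C5ar1 in combination over phenformin (0.568) was 0.793 and C1qa in combination over control 1.44 in the reduced gate, both under 1.5-fold. Among cells in the monocyte gate alone, C3ar1 was 0.731 in poly I:C over control and 0.846 in combination over poly I:C, and C5ar1 1.27 in phenformin over control. By TMM the split of all genes was 162 higher and 147 lower in combination over control, against 108 and 229 by CPM, and 174 and 116 in poly I:C over control, against 99 and 271, with a shift of the median of 0.13 on the log2 scale. It was 48 and 11 in phenformin over control, against 33 and 18, and 32 and 113 in combination over poly I:C, against 47 and 85.

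C3 was found in stromal cells too. The fibroblast gate (collagen transcripts and no Ptprc) had only 45, 50, 12 and 16 cells but 1946, 1504, 2785 and 4196 CPM of C3, above the 776 to 981 CPM of the macrophage gate. These few cells carried 4.81%, 4.52%, 2.48% and 4.23% of all C3 UMIs, against 88.5%, 89.9%, 90.3% and 81% in the macrophage gate. In the tumour gate C3 was 20.2 CPM in combination, 13.2 in poly I:C, 28.8 in phenformin and 51.8 CPM in control. It was the 1 member above the floor there in the 3 comparisons with control, and only through its 51.8 CPM in control. All 3 calls of lower rest on that 1 value and are no separate results. In these comparisons 8.02%, 11.8% and 0.96% of genes were lower. In combination over poly I:C no member passed the floor in the tumour gate, where 0.327% of genes were higher and 0.29% lower. The T cell gate had 17.8, 26.7, 11.1 and 57.8 CPM, so the tumour gate was below it in poly I:C and above it in phenformin. Counting intervals of 17.6 to 23.1 CPM and 15.8 to 20 CPM overlap in combination. In control, at 51.8 and 57.8 CPM, the intervals of these gates overlap too. As the T cell gate also held fibroblast markers, its C3 is not a measure of free RNA alone.

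C2, the protease of the classical pathway, and Cfb, its counterpart in the alternative pathway, are neighbours on chromosome 17 (34862604 to 34898265 and 34856374 to 34862518, minus strand). An annotated read-through gene on the same strand, Gm20547 (34856412 to 34882042), overlaps both and had 0 UMIs in all 4 libraries, so how reads in the shared exons were assigned is uncertain and the levels of C2 and Cfb are uncertain with it.

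The level of C2 was highest in the fibroblast gate. It had 379, 378, 254 and 404 CPM in the fibroblast gate of combination, poly I:C, phenformin and control, from 286, 366, 77 and 111 UMIs, with no clear order by treatment. In the macrophage gate it was at 6.41, 2.92, 1.87 and 3.47 CPM, and the T cell gate had 2.71, 4.39, 1.13 and 2.31 CPM. Of all C2 UMIs the fibroblast gate held 50.5%, 63.1%, 44.3% and 49.8%, although it had 0.544%, 0.755%, 0.22% and 0.263% of the cells.

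In the macrophage gate Cfb was the one member called higher with every treatment. It had 159 CPM in combination, 117 in poly I:C and 115 in phenformin, against 69.7 CPM in control. Combination over control was 2.28 (2.15 to 2.41), poly I:C over control 1.68 (1.59 to 1.79) and phenformin over control 1.65 (1.55 to 1.75). With gates set on cells thinned to 2000 UMIs, poly I:C over control was 1.3. Thinned to 1000 UMIs, 13.3%, 10.7% and 9.72% of macrophage-gate cells had a Cfb UMI with treatment, against 4.93% in control, and the T cell gate had 0.0596% to 0.248%.

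The difference in Cfb was present in both C1q classes. C1q-high cells had 180, 129 and 157 CPM in combination, poly I:C and phenformin, against 91.8 CPM in control. C1q-zero cells had 88.3, 94 and 68.2 CPM in those libraries, against 45.8 CPM in control. Poly I:C over control was 1.4 in C1q-high and 2.05 in C1q-zero cells, while phenformin over control was 1.71 and 1.49. In the monocyte gate Cfb had 40.3, 53 and 44.1 CPM, against 26.1 CPM in control, and 89.2, 99.2 and 74.2 CPM against 48.5 CPM in the reduced gate. Control was again the lowest library, by 1.84-fold, 2.05-fold and 1.53-fold in the reduced gate. Among cells in the monocyte gate alone, however, poly I:C over control was 0.9. The part of the monocyte gate's cap on C1q in these Cfb values was not tested.

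Cfp, properdin, differed little between the libraries in the macrophage gate. It had 360, 362 and 331 CPM in combination, poly I:C and phenformin, against 330 CPM in control, with ratios of 1.09 (1.06 to 1.12), 1.1 (1.07 to 1.13) and 1 (0.974 to 1.03). It was next highest in the neutrophil (137 to 196 CPM), dendritic (111 to 147) and monocyte gates (110 to 150), whose ranges overlap one another, and all lay below the macrophage range of 330 to 362. In the T cell gate it was 4.88 to 5.86 CPM. In the reduced monocyte gate Cfp had 257, 220 and 228 CPM with treatment, against 182 CPM in control, the largest ratio being 1.41 (1.29 to 1.55) for combination over control.

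Both anaphylatoxin receptors were found in the macrophage gate, and C5ar1 had a higher level in the neutrophil gate. C3ar1 had 160, 169 and 136 CPM in the macrophage gate of combination, poly I:C and phenformin, against 127 CPM in control. It was lower in the monocyte gate, at 33.6, 79.1 and 73.6 CPM against 52.4 CPM in control. In the reduced neutrophil gate it had 0 to 3 UMIs per library, which at 291614, 280526, 259882 and 256321 UMIs in all is at or near the floor of 3 UMIs. The 22.5 to 100 CPM of the whole neutrophil gate are thus values of a gate in which many UMIs belong to macrophage-gate cells.

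By level C5ar1 was highest in the neutrophil gate, against 115 to 156 CPM over the libraries in the macrophage gate. By number the macrophage gate held 87.2% and 93.7% of all C5ar1 UMIs of combination and poly I:C. Neutrophil-gate cells outside it held 5.09% and 1.82%. In the neutrophil gate C5ar1 had 299 CPM in combination, 175 in poly I:C, 292 in phenformin and 281 CPM in control. The reduced neutrophil gate had 490, 192, 396 and 449 CPM from 143, 54, 103 and 115 UMIs. Poly I:C stood below the other libraries, at 0.621 of control (0.522 to 0.74) in the whole gate and 0.429 (0.305 to 0.598) in the reduced one. Combination over poly I:C was 1.71 (1.47 to 2) and 2.55 (1.85 to 3.55), and combination over control 1.06 and 1.09. With cells thinned to 1000 UMIs the ratio of poly I:C over control was 0.679, and 0.689 with gates set on cells thinned to 2000, just short of 1.5-fold.

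The neutrophil gate is small and its marker levels moved with C5ar1. Csf3r, the receptor of the growth factor G-CSF and part of the gate, had 515, 299, 547 and 610 CPM in combination, poly I:C, phenformin and control. The 6 other neutrophil markers summed to 16805, 11063, 21252 and 19321 CPM. The reduced gate, with no UMI of the macrophage and T cell genes named, also had its lowest C5ar1 in poly I:C. It was not cleared of tumour or plasmacytoid dendritic cells. In the whole gate Epcam had 24.8, 215, 70.2 and 118 CPM in combination, poly I:C, phenformin and control. Siglech had 69.1, 146, 95.8 and 50.9 CPM there, and the tumour markers summed to 249, 735, 417 and 419 CPM. The part of gate purity in the C5ar1 values was not tested. C3 in the reduced neutrophil gate, like C5ar1, was lowest in poly I:C. It had 381, 192, 354 and 316 CPM, with poly I:C over control at 0.609 (0.423 to 0.87).

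Members called in the whole neutrophil gate were mostly genes with far lower levels in the reduced gate. Combination over control had 5 of 8 members higher, where 10% of genes were, and none lower, where 18% were, and poly I:C over control 5 of 8 higher and C5ar1 lower, where 18.9% of genes were higher and 19% lower. Phenformin over control had 4 of 7 higher, where 6.12% were, and none lower, where 8.44% were. In the comparisons with control, Cfb (27.2 to 55.5 CPM over the libraries) and C3ar1 (22.5 to 100 CPM) passed the floor only through the library where they were high. Combination over poly I:C had C5ar1 higher, where 10.1% were, and none lower, where 15.5% were, and combination over phenformin 3 C1q chains higher, where 10% were, and C3 lower, where 14.1% were. By TMM 464 genes were higher and 363 lower in combination over control, against 300 and 539 by CPM, and 584 and 177 in combination over poly I:C, against 312 and 476, with shifts of the median of 0.13 and 0.22 on the log2 scale. They were 413 and 711 in poly I:C over control, against 609 and 612, and 242 and 182 in phenformin over control, against 180 and 248. In the reduced gate C1qa over control was 1.63 (0.937 to 2.92) in combination and 1.13 (0.612 to 2.11) in poly I:C, against 4.87 and 3.67 in the whole gate. C1qb was 2.08 (0.992 to 4.66) and 0.997 (0.403 to 2.49) there, and C1qc 2.89 (1.2 to 7.97) and 2.48 (0.998 to 6.98). These rest on 7 to 39 UMIs per library.

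**Figure D5:**
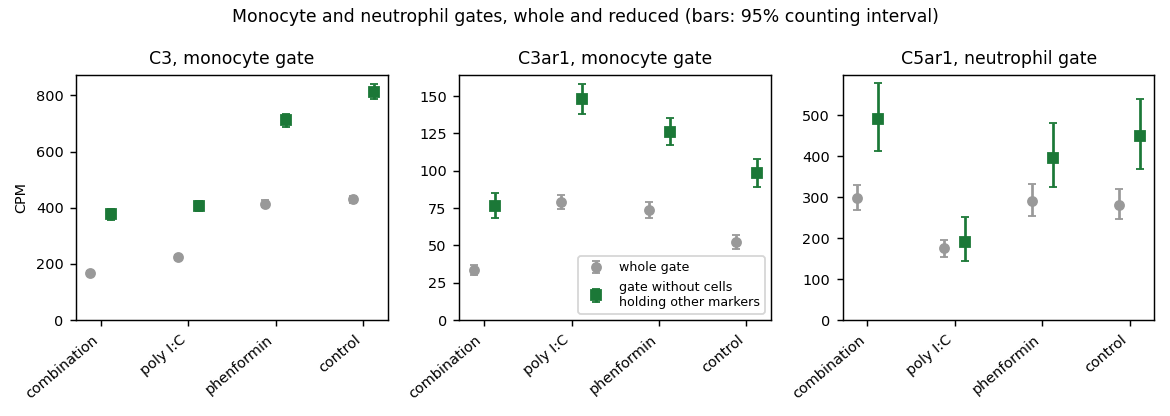
Level (y axis, CPM) of C3 and C3ar1 in the monocyte gate and C5ar1 in the neutrophil gate by library (x axis), for the whole gate and for the reduced gate; bars are 95% counting intervals. The reduced monocyte gate keeps cells that are also in the macrophage gate. C3 is lower in combination and poly I:C, C3ar1 is lowest in combination, and C5ar1 is lowest in poly I:C, in both versions.

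In the dendritic gate C1qa, C1qb, C1qc and C3 were higher in combination over control and in poly I:C over control, where 6.23% and 4.7% of genes were. Combination over poly I:C had C1qb and C1qc higher, where 4.22% were, combination over phenformin the 3 chains, where 6.58% were, and phenformin over control no member, where 1.77% were. No member was lower in these comparisons (combination, poly I:C and phenformin over control, then combination over poly I:C and combination over phenformin), where 5.81%, 7.45%, 3.16%, 2.86% and 3.83% of genes were. Summed macrophage markers there were 3430, 2796, 1294 and 946 CPM in combination, poly I:C, phenformin and control. Their part in the result was not tested. In the reduced dendritic gate combination over control was 2.82 (1.77 to 4.52) for C1qa, 2.43 (1.41 to 4.2) for C1qb and 3.16 (1.6 to 6.39) for C1qc, and poly I:C over control 2.04 (1.27 to 3.28), 1.66 (0.947 to 2.91) and 2.07 (1.02 to 4.28), at C1qa levels no higher than those of the T cell gate. C3 had 15.5, 49.7, 12.7 and 18 CPM in the reduced dendritic gate, with poly I:C over control at 2.77 (1.76 to 4.4) and combination over control at 0.865 (0.418 to 1.69). The T cell gate, for C3 a weaker guide, had 11.1 to 57.8 CPM over the libraries. Its value was highest in control, above the 18 CPM of the reduced dendritic gate. Cfb, C3ar1 and C5ar1 had 0 to 5 UMIs per library in the reduced dendritic gate. Cfp remained, at 74, 51.5 and 121 CPM in combination, poly I:C and phenformin, against 94.1 CPM in control, with poly I:C over control at 0.547 (0.398 to 0.742) and combination over phenformin at 0.612 (0.45 to 0.823). By TMM the dendritic split of all genes was 214 higher and 165 lower in poly I:C over control, 79 and 70 in phenformin over control, 93 and 120 in combination over poly I:C and 137 and 188 in combination over phenformin, against 152 and 241, 56 and 100, 134 and 91, and 211 and 123 by CPM. In the tumour gate it was 223 and 65, 266 and 64, and 43 and 6 for combination, poly I:C and phenformin over control, against 64 and 248, 45 and 362, and 16 and 29 by CPM, with shifts of the median of 0.16, 0.23 and 0.13 on the log2 scale.

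How often C3ar1 and C5ar1 were found together depended on depth. In the macrophage gate 45.9%, 56.8% and 42.2% of cells of combination, poly I:C and phenformin had UMIs of both, against 33.3% in control, an unthinned share that depends on depth. At 1000 UMIs per cell, 80, 72, 62 and 50 of 2752, 2641, 2263 and 2027 cells had both. There 19.1%, 16.8%, 21.2% and 20.8% of cells with C3ar1 also had C5ar1, against 13.1%, 15.5%, 13.2% and 10.7% of cells without it. In poly I:C these shares were close. By C1q class, C3ar1 was 183, 179, 168 and 179 CPM in C1q-high cells and 75.7, 143, 96.9 and 74.4 CPM in C1q-zero cells. C5ar1 hardly differed by class in combination, poly I:C and phenformin (C1q-high over C1q-zero 1.08, 1.01 and 1.04) and was 1.32-fold higher in C1q-high cells of control.

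In the macrophage gate as a whole neither receptor reached 1.5-fold in any comparison. C3ar1 over control was 1.26, 1.33 and 1.07 in combination, poly I:C and phenformin, and C5ar1 1.21, 1.36 and 1.16. Control was the lowest library for both. In C1q-zero cells C3ar1 was 1.92-fold higher in poly I:C than in control, whereas in C1q-high cells the ratio was 1.

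The genes most like each member, by Pearson's correlation of log2(CPM + 5) over 20 values (5 gates by 4 libraries), differed between the members. The values share libraries, and some gates share cells, so the correlations are a description. The C1q chains were closest to each other, at 0.998 to 0.999, then to Vcam1 (0.975 to 0.977) and Ccl8 (0.965 to 0.972). C3 was closest to Tgm2 (0.983) and Atp6v1c1 (0.981), Cfb to Msr1 (0.980) and Clec4a2 (0.979), and Cfp to Ctss (0.996) and Aif1 (0.992). C3ar1 was closest to Msr1 (0.985) and Slc7a7 (0.978), and C5ar1 to Itgam (0.992), which encodes a chain of complement receptor 3, and Lilrb4a (0.991).

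Of 38 other complement genes, 7 passed the floor in the macrophage gate: C4b, which follows C1 in the classical pathway, the regulator Cr1l, the complement receptor chains Itgam, Itgax and Itgb2, and the C1q-binding proteins Cd93 and C1qbp. Cd93 was higher in poly I:C over control (1.57, 1.48 to 1.68), with 72.2, 92.9 and 60.4 CPM in combination, poly I:C and phenformin, against 59.1 CPM in control. C4b was higher in combination over phenformin (1.54, 1.47 to 1.62), with 143, 105 and 92.4 CPM in those libraries, against 102 CPM in control. None of the 7 was lower at 1.5-fold in any of the 5 comparisons. The levels of the proteases that act with C1q were higher in the fibroblast gate than in the macrophage gate. C1s1 had 342, 317, 426 and 641 CPM in the fibroblast gate and 2, 3.72, 4.89 and 5.2 CPM in the macrophage gate of combination, poly I:C, phenformin and control, and C1ra 141, 161, 95.8 and 222 CPM against 14.5, 16.4, 16.9 and 15.4 CPM. By number the larger macrophage gate still held more C1ra UMIs, 457, 613, 531 and 346, than the fibroblast gate, with 106, 156, 29 and 61.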

How the data were processed

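The values deposited by the authors are UMI counts, whole numbers for each gene in each barcode and not normalized, as the values show; per the submitters' processing notes the authors used Cell Ranger 3.1.0 and builds mm10 and GRCm38. The annotation release is not given in the sources used here. The filter asked for 200 genes and for less than 20% mitochondrial UMIs per cell (8268, 6619, 5453 and 6095 of 9303, 7668, 6539 and 7309 barcodes were kept in combination, poly I:C, phenformin and control), leaving 71308923, 76070132, 61097586 and 57332308 UMIs. No doublet caller was used; leaving out cells above the 95th percentile of UMIs is among the alternatives. UMIs were summed per gate and scaled to CPM, with exact Poisson intervals; ratios have exact intervals conditional on their total, shares Clopper-Pearson intervals, all at 95%. Cells are not replicates, so no p-value is given.

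The 9 members, the 38 other complement genes, gates, markers and motifs were chosen with earlier results of these data known. All 9 members are named; of the other genes those past 1.5-fold in the macrophage gate are named, and C1s1 and C1ra were added after their values were seen, as were C1q classes and reduced gates. For likeness the rule names 5 genes per member, of which the leading ones are given. Gene symbols with 2 feature rows were summed, and C4a is not among the features. Positions are from GENCODE vM21, promoters from RefSeq. Alternatives were cell filters, doubled gate thresholds, cells in 1 gate, thinning, TMM scaling (edgeR 4.0.16, R 4.3.3), leaving out mitochondrial, ribosomal and haemoglobin genes, subtracting the T cell gate, mean over cells, possible doublets left out, a fold of 2 and no floor. Calling was tested on counts simulated from the macrophage gate of control, with 2-fold changes and counting error only. That test cannot show how calling does with differences between libraries, mixed gates or small gates.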

Additional observations from a re-analysis of the deposited data

Results flagged for a closer look

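C3ar1 in the monocyte gate differed between treatments in opposite ways on the 2 backgrounds of phenformin. With phenformin, adding poly I:C (combination over phenformin) gave a ratio of 0.456, at 33.6 against 73.6 CPM; without phenformin, poly I:C over control gave 1.51, at 79.1 against 52.4 CPM. What drew attention is that the 2 ratios lie past 1.5-fold on opposite sides of 1; with 1 library per treatment the difference was not tested. In the reduced gate they were 0.605 and 1.5. Among cells in the monocyte gate alone, poly I:C over control was 0.731. With cells thinned to 1000 UMIs it was 1.03 and as the mean over cells 1.18. The T cell markers of the gate summed to 1613, 1310, 758 and 859 CPM in combination, poly I:C, phenformin and control. Cells also in the macrophage gate, which the reduced gate keeps, supplied 38.8%, 48.3%, 55.6% and 45.5% of its UMIs. Outside the macrophage gate it held 47 C3ar1 UMIs in combination and 61 in poly I:C, against 327 and 882 in the reduced gate. The part of these other cells, and of the gate's cap on C1q, in the ratios was not tested.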

How the results depend on the processing

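Of 60 ratios past 1.5-fold, 622 of 637 values under the alternatives kept their direction and 567 stayed past 1.5-fold. The number of members past it in the macrophage gate moved in poly I:C over control to 2 with gates on cells thinned to 2000 UMIs (C1qc and Cfb 1.3) and to 1 at a fold of 2, in phenformin over control to 0 at a fold of 2 and to 2 with no floor, and in combination over poly I:C to 1 with no floor; C1qc in poly I:C over control was 1.41 with doubled gate thresholds. These log2 ratios reversed, and the cause was not tested. With cells in 1 gate only, poly I:C over control gave Cfb -0.15 and C3ar1 -0.45 in the monocyte gate and C1qa -0.40 and C1qb -0.17 in the neutrophil gate. C3 in the dendritic gate, combination over control, gave -3.27 with cells in 1 gate only, -0.18 with gates on cells thinned to 2000 UMIs, -1.28 thinned to 1000 and -0.21 in the reduced gate, and poly I:C over control -0.66 thinned to 1000. C1qb in the dendritic gate gave -0.19 in combination over poly I:C with doubled thresholds and -0.02 in poly I:C over control with gates on cells thinned to 2000. The reduced neutrophil gate gave Cfb -0.13 in poly I:C over control, and C1qa -0.13 and C3 0.10 in combination over phenformin. Subtracting the T cell gate left no value for 5 ratios. Counting error is widest in the reduced neutrophil gate, of 256321 to 291614 UMIs. No paired analysis was possible because each treatment has 1 library.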

Other observations

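C6, a terminal component, was below the floor of the macrophage gate as a whole (27.6, 23.8, 17.4 and 23.8 CPM in combination, poly I:C, phenformin and control) but lay almost wholly in its C1q-high cells. These had 35.1, 33.2, 33.5 and 47 CPM from 853, 869, 520 and 512 UMIs, and C1q-zero cells had 0, 5, 9 and 9 UMIs. C4b was likewise higher in C1q-high cells, at 171, 127, 158 and 166 CPM, than in C1q-zero cells, at 43, 46.4, 24.8 and 34.4 CPM. Hc, which encodes C5, the source of the C5ar1 ligand, had 1, 1, 2 and 3 UMIs in the macrophage gates of these libraries. Vsig4, a complement receptor of resident macrophages, was rare, with 102, 33, 26 and 2 UMIs there.

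The inhibitor Serping1 had 2564, 2191, 2359 and 2874 CPM in the fibroblast gate of combination, poly I:C, phenformin and control, and 8.44, 13.9, 2.86 and 12.2 CPM in the macrophage gate. The fibroblast gate held 45, 50, 12 and 16 cells.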
